A study of Mus musculus with 9 samples.

Results

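The enzymes described here conjugate drugs, dietary compounds, bilirubin and hormones, or convert hydroxysteroids, and were taken by name from the gene table of a study of mouse colon. All protein-coding rows whose symbol begins with Gst and a letter, or with Ugt, Sult or Hsd and a digit, are members. The rule itself uses no measured value, but it was set with earlier results of these data known. They number 56 of 17511 genes: 23 glutathione transferases (Gst), 14 hydroxysteroid dehydrogenases (Hsd), 12 UDP-glycosyltransferases (Ugt) and 7 sulfotransferases (Sult). RefSeq names 86 protein-coding mouse genes in this way. Of those, 55 match a member by symbol, Gsta5 was matched by its gene ID, and the rest are not analysed here. The name groups enzymes of unlike function: Hsd17b10 and Hsd17b4 serve mitochondria and peroxisomes, and Ugt8a makes galactolipids.

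The study compared colon epithelial cells, released from fresh tissue with EDTA, between mice labelled DKO (Cdx1-/-Cdx2f/f vill (+)) and mice labelled Wt (Cdx1-/-Cdx2f/f vill (-)), both given tamoxifen over 6 days. Both groups therefore carry, by their strain labels, the Cdx1 null and the floxed Cdx2 alleles, and they differ in the vill tag, which the labels do not spell out. RNA-seq and ATAC-seq had 2 libraries per group each, and Cdx2 ChIP-seq had 1 library, labelled Wt and untreated, without a replicate. Whether the libraries of a group are separate animals is not stated in the labels. The p-values therefore describe the spread among these libraries alone, and that spread may be technical.

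Conjugation, the second phase of detoxification, joins a polar group to a compound so that it can be exported. Glutathione transferases attach glutathione to reactive electrophiles, UDP-glucuronosyltransferases attach glucuronic acid, and sulfotransferases attach sulfate. Hydroxysteroid dehydrogenases switch steroids between active and inactive forms by oxidising or reducing a hydroxyl group. The intestinal epithelium is a main site of such metabolism outside the liver, and the colon inactivates corticosteroids to keep its mineralocorticoid receptor selective for aldosterone.

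Estimated reads per RNA library came to 21.2 and 20.1 M in DKO and 16.4 and 25.5 M in Wt (M, megareads). Gene values came from the authors' deposited table, which gives a mean normalized count over all 4 libraries, a log2 fold change of DKO over Wt and its SE, so no value per library can be given for a gene. Mean normalized counts are not divided by gene length and do not rank genes by level. Cdx2 was at a log2 fold change of -0.27 (adjusted p = 0.301, SE 0.21) and Cdx1 at -1.06 (adjusted p = 2.08e-05, SE 0.23) in the authors' deposited table, and a gene total does not resolve a deleted exon. The targeted gene thus did not check the labels, and Cdx1 reads were counted (mean 2595 normalized counts, by the authors' deposited table) although both strain labels give Cdx1-/-. DKO and Wt here mean the libraries labelled so. Of 8 epithelial markers, 2 were higher in DKO, Cdh1 (log2 fold change 0.56, SE 0.19) and Krt18 (0.60, SE 0.22), and 2 were lower, Vil1 (-0.87, SE 0.23) and Krt20 (-0.92, SE 0.26), by the authors' deposited table. The other four, among them Epcam (-0.22, SE 0.19) and Krt8 (-0.20, SE 0.18) with mean counts of 39413 and 159960, were not called in the authors' deposited table. Markers of other cells moved with the groups: DKO was lower for 15 of 15 markers of endothelium, muscle and stroma (median log2 fold change -5.14), all 7 goblet cell markers were lower (median -4.39) and 5 of 6 gastric markers were higher (median 5.79) in the authors' deposited table. Among the gastric markers, Pgc and Gkn1 had means of only 17.9 and 21.7 normalized counts. Lymphocyte and plasma cell markers were higher in 1 and lower in 5 of 11, macrophage and neutrophil markers higher in 4 and lower in 3 of 11, and adipocyte and liver markers stood with 2 of 6 higher and 3 lower, by the authors' deposited table. The part of these shifts in any result below was not tested, and in bulk samples fewer cells of a type and less RNA per cell cannot be told apart.

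The 56 members moved both ways. Glutathione transferases of the alpha class were higher in DKO, by 10-fold or more for Gsta5, Gsta1 and Gsta4, whereas the steroid dehydrogenases Hsd3b3 and Hsd3b2 were lower by more than 100-fold, all by the authors' deposited table. At an adjusted p under 0.05, the authors' deposited table called 16 members higher and 17 lower in DKO, and 23 were not called. Over all 17511 genes the same rule called 18.5% higher and 18.3% lower, and over protein-coding genes alone 21.1% and 19.9%, against 28.6% and 30.4% of the members. With a 2-fold minimum added, the authors' deposited table left 11 members higher and 13 lower, and 11.0% and 13.2% of all genes. The median log2 fold change of the members was -0.25, and that of all genes was -0.02, in the authors' deposited table. The members' means ran from 7.27 to 12320 normalized counts, 46 of them at 50 or more.

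**Figure D1:**
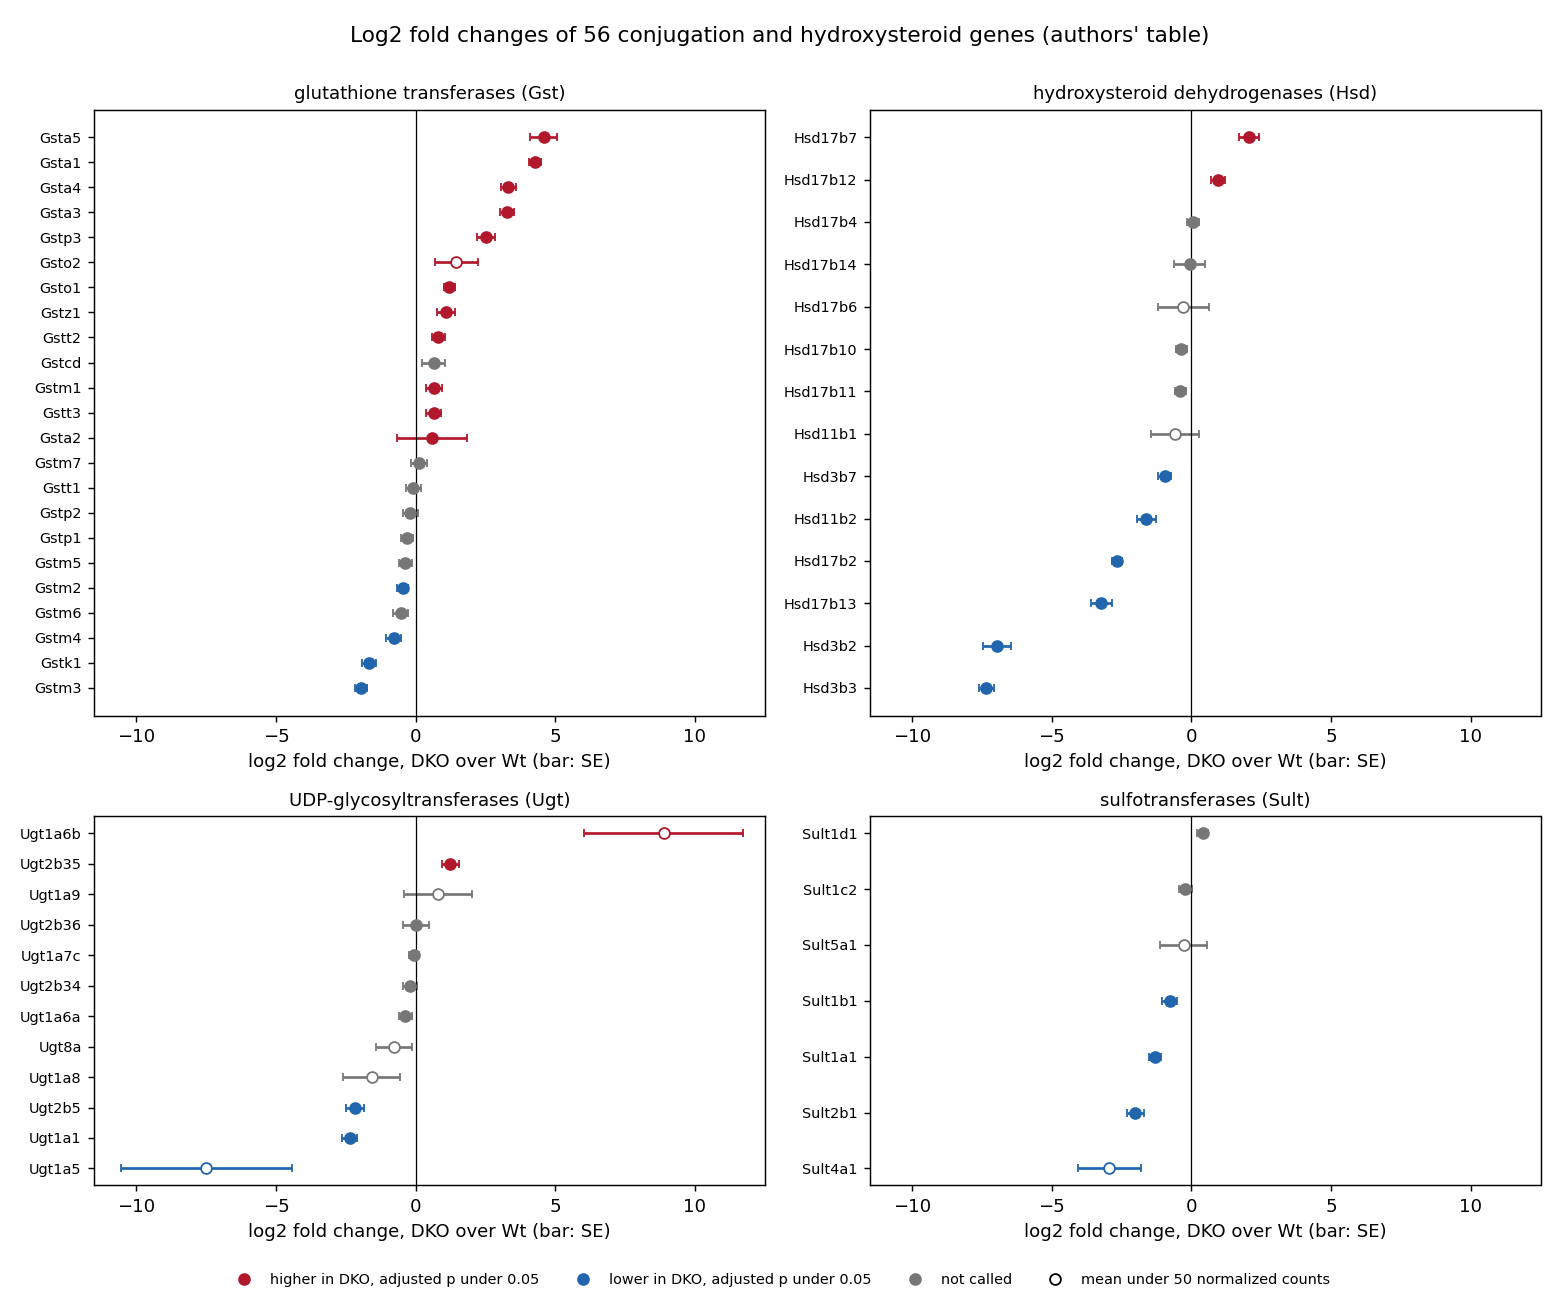
Log2 fold change of DKO over Wt for each of the 56 members, by family, with bars of 1 SE, from the authors' deposited table. Glutathione transferases lean to the higher side, with Gsta5 and Gsta1 above 4, while Hsd3b3 and Hsd3b2 lie near -7. Open circles mark means under 50 normalized counts.

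By family the calls were as follows. Of the 23 glutathione transferases, 12 were higher and 4 lower in DKO, with a median log2 fold change of 0.64, in the authors' deposited table. The 7 sulfotransferases had 0 higher and 4 lower (median -0.78), and the 14 hydroxysteroid dehydrogenases 2 higher and 6 lower (median -0.49), in the authors' deposited table. Of the 12 UDP-glycosyltransferases, 2 were higher, 3 lower and 7 not called (median -0.29) in the authors' deposited table. In shares, 52.2% of Gst members were higher and 17.4% lower, against 14.3% and 42.9% of Hsd, 16.7% and 25.0% of Ugt and 0% and 57.1% of Sult members. Over all protein-coding genes 21.1% were higher and 19.9% lower, so both Ugt shares lay near the background. No test of a difference between families, or from that background, was run.

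All 5 alpha-class glutathione transferases listed were called higher. These enzymes clear products of lipid peroxidation, and Gsta4 is known for its preference for hydroxynonenal. Gsta1 (chr9:78230669-78242683, GRCm38) had a log2 fold change of 4.29 (adjusted p = 1.29e-88, SE 0.21), a level 19.5-fold higher in DKO, at a mean of 7166 normalized counts, by the authors' deposited table. Gsta5 followed the same direction at 4.59 (adjusted p = 8.71e-21, SE 0.48, mean 257 normalized counts) by the authors' deposited table. Gsta4, 10.0-fold higher, stood at 3.33 (adjusted p = 2.20e-35, SE 0.26, mean 5205 normalized counts) by the authors' deposited table. Gsta3, which lies apart on chromosome 1 (chr1:21240565-21265575), stood at 3.29 (adjusted p = 3.06e-39, SE 0.25, mean 1108 normalized counts) by the authors' deposited table. Gsta2 also passed (adjusted p = 0.0291), but its log2 fold change of 0.59 was smaller than its SE of 1.24 in the authors' deposited table. Its p therefore does not follow from the ratio of those values, and the size of its change is uncertain. Gsta1, Gsta2, Gsta4 and Gsta5 share a 155 kb stretch of chromosome 9. Reads of such close copies could be split between them by the authors' counting, so single values within the alpha class, and likewise within the mu, pi and theta classes and the Ugt2b genes, are uncertain.

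Outside the alpha class the calls were mixed. The pi-class gene Gstp3 rose (log2 fold change 2.53, adjusted p = 1.17e-13, SE 0.33), while its neighbours Gstp1 (-0.31, SE 0.20) and Gstp2 (-0.18, SE 0.28) were not called in the authors' deposited table. The omega-class gene Gsto1, which reduces dehydroascorbate, had the highest mean of all members at 12320 normalized counts and a log2 fold change of 1.21 (adjusted p = 2.11e-08, SE 0.20) in the authors' deposited table. Gsto2 was called at 1.46 (adjusted p = 0.0378, SE 0.78) with a mean of only 42.1 normalized counts, by the authors' deposited table. Gstz1, the zeta-class enzyme of tyrosine breakdown, stood at 1.08 (SE 0.33), and the theta-class genes Gstt2 and Gstt3 at 0.82 (SE 0.22) and 0.64 (SE 0.28), each called, with Gstt1 at -0.07 (SE 0.28) not called, in the authors' deposited table. Gstcd, which carries only a glutathione transferase-like C-terminal domain, was at 0.65 (SE 0.40) and was not called in the authors' deposited table.

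Mu-class calls went both ways. The 7 genes share 149 kb of chromosome 3, and 3 were lower and 1 was higher by the authors' deposited table. Gstm3 fell most, with a log2 fold change of -1.96 (adjusted p = 5.27e-19, SE 0.21), and Gstm4 (-0.79, SE 0.27) and Gstm2 (-0.46, SE 0.19) were also called lower in the authors' deposited table. Gstm1, with a mean of 7423 normalized counts, was called higher by a small margin (log2 fold change 0.65, adjusted p = 0.0477, SE 0.29) in the authors' deposited table. Gstm5, Gstm6 and Gstm7 were not called, at -0.36, -0.52 and 0.12, in the authors' deposited table. Gstk1, the kappa-class enzyme of mitochondria and peroxisomes, was lower by 3.17-fold (log2 fold change -1.66, adjusted p = 1.27e-11, SE 0.24) in the authors' deposited table.

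Among the UDP-glucuronosyltransferases, the bilirubin-conjugating gene Ugt1a1 was 5.10-fold lower in DKO, with a log2 fold change of -2.35 (adjusted p = 2.63e-17, SE 0.27, mean 3801 normalized counts) by the authors' deposited table. Of other genes at the same locus, Ugt1a7c was at -0.07 (SE 0.18, mean 5138 normalized counts) and Ugt1a6a at -0.37 (SE 0.23, mean 3503 normalized counts), both not called, in the authors' deposited table. The Ugt1a genes are alternative first exons spliced to shared later exons within 149 kb of chromosome 1, so reads of the shared part cannot be told apart between them. Ugt1a6b (8.89, adjusted p = 5.18e-07, SE 2.84) and Ugt1a5 (-7.49, adjusted p = 0.000237, SE 3.07) had the extreme folds of all members, on means of only 41.6 and 22.0, by the authors' deposited table. Ugt1a6b is a close copy of Ugt1a6a, so the split of reads between the pair is uncertain. Ugt1a8 (-1.57, adjusted p = 0.0515, SE 1.02) and Ugt1a9 (0.81, SE 1.23) were not called in the authors' deposited table.

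The Ugt2b genes, which conjugate steroids and drugs, moved apart from each other. Ugt2b5 fell (log2 fold change -2.17, adjusted p = 1.87e-11, SE 0.31) and Ugt2b35 rose (1.24, adjusted p = 0.000157, SE 0.31) in the authors' deposited table. Ugt2b34, which had the highest mean of the family at 7205 normalized counts, was at -0.20 (adjusted p = 0.533, SE 0.24), and Ugt2b36 was at 0.02 (SE 0.47), neither called, in the authors' deposited table. Ugt8a, which makes galactosylceramide rather than glucuronides, was at -0.76 (SE 0.65, mean 38.6 normalized counts) and was not called in the authors' deposited table.

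Sulfotransferases were called in 1 direction. Sult2b1, which sulfates cholesterol, was 4.02-fold lower (log2 fold change -2.01, adjusted p = 7.50e-11, SE 0.30) in the authors' deposited table. Sult1a1, the phenol sulfotransferase, was 2.46-fold lower (log2 fold change -1.30, adjusted p = 2.98e-09, SE 0.21, mean 5723 normalized counts) by the authors' deposited table. Sult1b1, a gut sulfotransferase of thyroid hormones and phenols, was at -0.78 (adjusted p = 0.0117, SE 0.28), while its neighbour Sult1d1, a catecholamine sulfotransferase, was at 0.40 (adjusted p = 0.0920, SE 0.20) and was not called in the authors' deposited table. Sult4a1, known from brain, was called lower at -2.94 (adjusted p = 0.00331, SE 1.12) on a mean of only 18.4 normalized counts, by the authors' deposited table. Sult1c2 (-0.22, SE 0.22) and Sult5a1 (-0.28, SE 0.85, mean 7.27 normalized counts) were not called in the authors' deposited table.

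Leaving aside members whose mean was under 50 normalized counts, the deepest fall was in the Hsd3b genes, dehydrogenase/isomerases of steroid hormone synthesis. Hsd3b3 (chr3:98741476-98764540) was 162-fold lower in DKO, with a log2 fold change of -7.34 (adjusted p = 5.04e-173, SE 0.26) at a mean of 3347 normalized counts, by the authors' deposited table. Hsd3b2, next to it on chromosome 3, was at -6.96 (adjusted p = 7.20e-42, SE 0.50, mean 367 normalized counts) by the authors' deposited table. They are close copies, so their counts may share reads. Hsd3b7, which acts in bile acid synthesis, was lower by less, at -0.96 (adjusted p = 0.000273, SE 0.24) in the authors' deposited table.

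Hsd17b2 and Hsd11b2, which inactivate steroid hormones, were also lower, as was Hsd17b13. Hsd17b2, which oxidises estradiol and testosterone, was 6.33-fold lower (log2 fold change -2.66, adjusted p = 4.22e-42, SE 0.19, mean 2948 normalized counts) by the authors' deposited table. Hsd11b2, which inactivates corticosterone in mouse, was 3.06-fold lower (log2 fold change -1.62, adjusted p = 9.61e-06, SE 0.35, mean 7357 normalized counts) by the authors' deposited table. Hsd11b1, which regenerates active glucocorticoid, had a mean of only 13.6 normalized counts and was not called (-0.59, SE 0.85) in the authors' deposited table. Hsd17b13, a lipid droplet protein known from liver, was 9.40-fold lower (log2 fold change -3.23, adjusted p = 1.34e-17, SE 0.37, mean 1173 normalized counts) by the authors' deposited table. Its neighbour Hsd17b11, also of lipid droplets, was at -0.40 (adjusted p = 0.0934, SE 0.20) and was not called in the authors' deposited table.

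Of this family, Hsd17b7 and Hsd17b12 were called higher, both of them enzymes of lipid synthesis. Hsd17b7, a ketosteroid reductase of cholesterol synthesis, was 4.19-fold higher (log2 fold change 2.07, adjusted p = 7.05e-09, SE 0.35) in the authors' deposited table. Hsd17b12, a reductase of fatty acid elongation, was at 0.95 (adjusted p = 0.000320, SE 0.24) in the authors' deposited table. Hsd17b4 (0.06, SE 0.21) and Hsd17b10 (-0.36, SE 0.20), with means of 2431 and 1570 normalized counts, and Hsd17b14 (-0.07, SE 0.54) and Hsd17b6 (-0.29, SE 0.91), with means of 164 and 8.10, were not called in the authors' deposited table.

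Genes that supply or accompany conjugation were read from lists of the surrounding pathways. The background for the counts of each list is 21.1% higher and 19.9% lower over all protein-coding genes. No list was tested against it. Of 14 genes of cofactor and glutathione supply, 6 were higher and 4 lower (median log2 fold change 0.30) in the authors' deposited table. The higher ones serve glutathione, its precursors, its reduction or, in Bpnt1, the recycling of spent sulfate donor: the cystine carrier Slc7a11 was at 4.71 (SE 0.31), the rate-limiting Gclc at 3.71 (SE 0.25) and Gsr at 2.08 (SE 0.22) in the authors' deposited table. Gss, G6pdx and Bpnt1 were the other higher genes, and Gclm (0.51, adjusted p = 0.0609, SE 0.23) was not called, in the authors' deposited table. The lower ones included the supply of sulfate and glucuronic acid: Papss2, which makes the active sulfate donor, was at -2.23 (SE 0.34), the sulfate carrier Slc26a2 at -1.01 (SE 0.37) and Ugdh, which makes UDP-glucuronic acid, at -0.76 (SE 0.22) in the authors' deposited table. The fourth, Ggt1, which cleaves glutathione, was at -1.07 (SE 0.48) in the authors' deposited table.

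Of 16 measured detoxifying enzymes with other names, 3 were higher and 2 lower (median -0.08) in the authors' deposited table. The microsomal glutathione transferase Mgst1 was at 2.75 (SE 0.20) and the quinone reductase Nqo1 at 2.54 (SE 0.19), both higher, and Arsa, a sulfatase, at -1.54 (SE 0.32), lower, in the authors' deposited table. Mgst2 (-0.01, SE 0.19) and Mgst3 (-0.28, SE 0.20) were not called in the authors' deposited table. The 7 exporters of conjugates and drugs had 2 higher and 3 lower (median -0.28), with Abcc4 at 3.79 (SE 0.27), Abcc2 at 2.93 (SE 0.84) and Abcb1a at -2.01 (SE 0.22) in the authors' deposited table. Abcc2 had a mean of only 35.1 normalized counts. Among 13 regulators, 3 were higher and 3 lower (median 0.25), with Ppara at 1.46 (SE 0.35), Hnf4a at -1.09 (SE 0.24) and Vdr at -0.86 (SE 0.18) in the authors' deposited table. Both regulator counts lay near the background of 21.1% higher and 19.9% lower over all protein-coding genes. Nfe2l2, the factor that drives antioxidant response genes, was at 0.60 (adjusted p = 0.0343, SE 0.25), and the xenobiotic receptor Nr1i2 at 0.14 (adjusted p = 0.744, SE 0.28), in the authors' deposited table.

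Steroid genes outside the name rule were divided too. Of 13 measured steroid enzymes, 2 were higher and 6 lower (median 0.22) in the authors' deposited table. The background over all protein-coding genes was 21.1% higher and 19.9% lower, here as for the next list. H6pd, which feeds NADPH to Hsd11b1, was at 3.28 (SE 0.26), and Akr1c18 and Dhrs11, reductases of steroids, were lower, at -4.39 (SE 0.83) and -3.10 (SE 0.25), by the authors' deposited table. Akr1c18 had a mean of only 46.8 normalized counts. Steroid receptors and corticosteroid targets were higher for 8 of 12 and lower for 0 (median 1.70) by the authors' deposited table. Fkbp5, a glucocorticoid target, stood at 3.51 (SE 0.24), Sgk1 at 2.97 (SE 0.23) and the sodium channel subunit Scnn1b at 2.76 (SE 0.46) in the authors' deposited table. The glucocorticoid receptor gene Nr3c1 was at 0.74 (adjusted p = 0.0156, SE 0.27), and the mineralocorticoid receptor gene Nr3c2 at -0.50 (adjusted p = 0.177, SE 0.32), in the authors' deposited table.

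**Figure D2:**
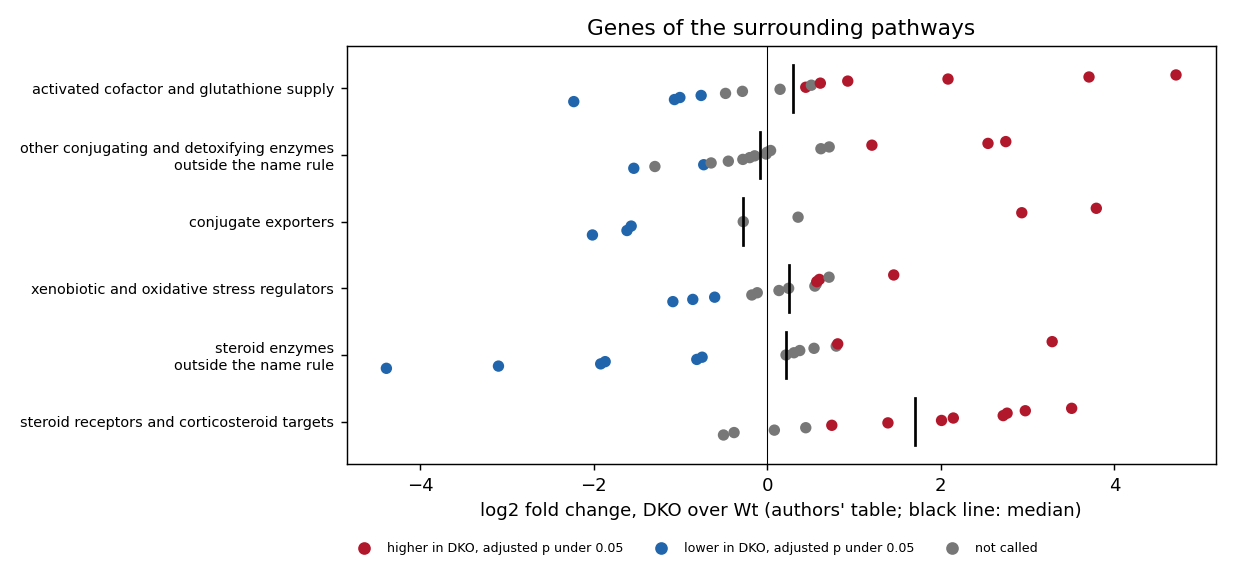
Log2 fold change of DKO over Wt for each measured gene of 6 pathway lists, with the median as a black line, from the authors' deposited table. Corticosteroid receptors and targets have a median of 1.70 and no lower call, while the other lists hold calls in both directions.

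Open chromatin, read by ATAC-seq from where a transposase inserts, gave fewer promoter peaks in DKO across the genome, and the same was seen at the members. Peak lists of the authors had 40101 and 23961 entries for DKO and 48163 and 53943 for Wt. A peak lay within 1 kb of a RefSeq start for 28.9% and 44.6% of 12118 genes in DKO and for 81.1% and 83.1% in Wt. Starts were at hand for 48 members, and a peak lay there for 8 and 9 of them in DKO (16.7% and 18.8%), against 34 and 35 in Wt (70.8% and 72.9%). Both DKO libraries were below both Wt libraries, for the members as for all genes. The DKO library with more peaks had the smaller share of genes with a promoter peak. The depth of the ATAC libraries is unknown from peak lists, and its part in the difference was not tested.

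**Figure D3:**
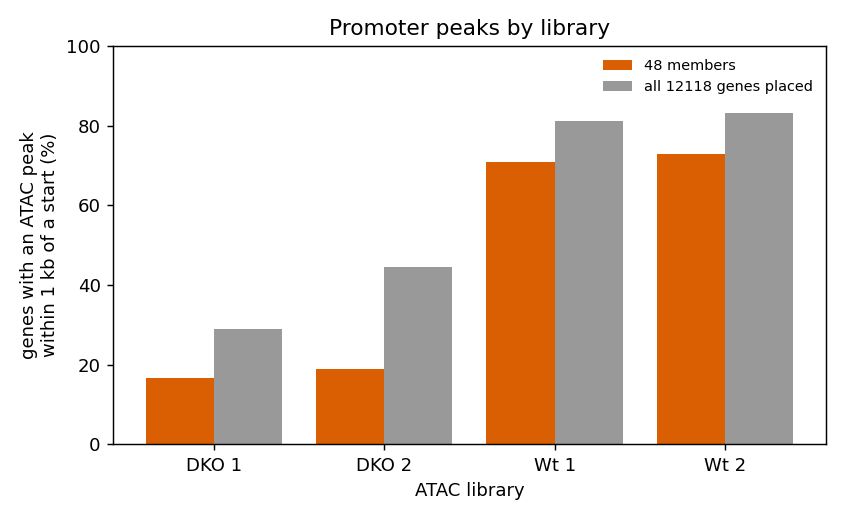
Share of genes with an ATAC peak within 1 kb of a start in each library, for 48 members and for all 12118 genes placed. DKO libraries hold peaks at 16.7% and 18.8% of member starts, and Wt libraries at 70.8% and 72.9%.

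In 20 of the 48 members (41.7%) a promoter peak was listed in both Wt libraries and in neither DKO library, where 32.7% of all genes placed had this pattern. The order of members and background turned with the peak threshold: among peaks with a -log10 q of at least 5 the pattern held for 19 of 48 members and for 52.8% of all genes placed. The opposite pattern was found for 0 members and for 0.198% of all genes placed. A peak in all 4 libraries was present for 4 members, Gstk1, Gsto2, Hsd17b7 and Ugt8a (8.33%, against 23.6% of all genes placed). No library had a peak for 12 members (25.0%, against 14.5% of all genes placed). Split by RNA call, the Wt-only pattern was found for 3 of 13 placed members that were higher in RNA, 7 of 14 that were lower and 10 of 21 that were not called. Over all genes placed those shares were 25.2%, 35.6% and 34.3%. A peak in all 4 libraries was found for 2, 1 and 1 of those members, and for 36.3%, 15.9% and 21.7% of all genes placed with the same RNA calls.

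Single promoters show both sides. At Gsta3, whose RNA rose, the strongest promoter peak had a fold enrichment of 4.85 and 6.51 over local background in Wt, a value given by the authors' peak caller, and no peak was listed in either DKO library. Hsd17b7, whose RNA rose too, had peaks in all libraries, at 4.65 and 5.79 in DKO and 12.2 and 13.2 in Wt. At Hsd17b13, whose RNA fell, no peak was listed in DKO, against fold enrichments of 3.79 and 5.41 in Wt. The Sult1b1 promoter likewise had no listed peak in DKO, against 10.3 and 11.3 in Wt. Gstk1, lower in RNA, kept peaks at 5.64 and 4.60 in DKO, against 9.48 and 8.65 in Wt. A listed promoter peak was thus absent in both DKO libraries at Gsta3, which rose, and at Hsd17b13 and Sult1b1, which fell.

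Several members with large RNA changes had no promoter peak in any library. Gsta1, Gsta5, Hsd3b3, Hsd3b2, Ugt1a1 and Ugt2b5 were among these 12. Within 10 kb of their gene spans, Hsd3b3 and Hsd3b2 had 0 peaks in all 4 ATAC libraries. The start windows of Hsd3b3 are nearly the same sequence as each other, and those of Gsta1 and Gsta5 are too. Whether ATAC reads of such close copies could be placed was not tested, so a missing peak there does not show closed chromatin. For the 8 members without a start at hand, peaks were counted over the gene span and 10 kb on each side. Gsta4 had 2 and 1 such peaks in DKO and 6 and 4 in Wt, Hsd11b2 had 0 and 0 in DKO and 5 and 4 in Wt, and Hsd17b2 had 4 and 1 in DKO and 10 and 11 in Wt. Gstt2 had 2 and 0 in DKO and 4 and 4 in Wt, Hsd17b14 had 0 and 0 in DKO and 3 and 5 in Wt, and Ugt1a6b had 2 and 2 in DKO and 5 and 6 in Wt. For these 6 members both DKO libraries were below both Wt libraries, but the same count was not made over all genes. The groups overlapped at the other two: Hsd17b4 had 5 and 1 in DKO and 3 and 3 in Wt, and Sult4a1 had 0 and 2 in DKO and 0 and 1 in Wt. Summed over all 56 spans, DKO had 64 and 42 and Wt had 167 and 169, with overlapping spans of the Ugt1a locus counted more than once. The whole peak lists were also shorter in DKO (40101 and 23961 entries) than in Wt (48163 and 53943). Without span counts for all genes, these differences cannot be read as particular to the members.

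**Figure D4:**
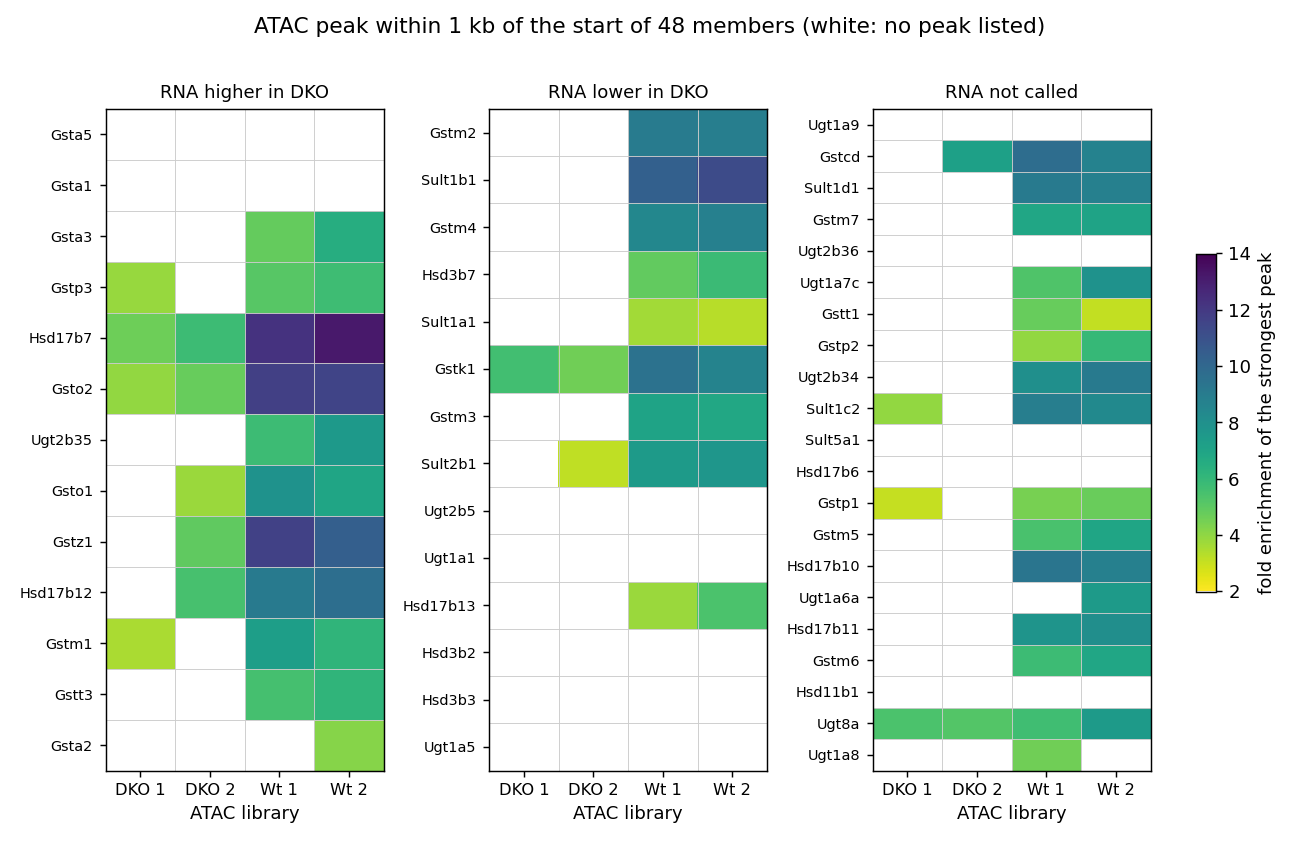
Fold enrichment of the strongest ATAC peak within 1 kb of the start of each of 48 members, in 2 DKO and 2 Wt libraries, grouped by RNA call. White cells, with no peak listed, fill most DKO columns, and 12 members have none in any library.

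Cdx2 binding was seen near few members. A Cdx2 ChIP peak lay within 10 kb of the start for 5 of 48 members (10.4%), Gsta1, Gstm5, Hsd17b11, Ugt1a1 and Ugt2b34, where 10.5% of all genes placed had one. Of these, Gsta1 was higher in RNA, Ugt1a1 was lower and the other three were not called. Such a peak lay near 9.11% of all genes placed that were higher, 13.8% of those lower and 9.88% of those not called. The closest summit lay 67 bases upstream of the Ugt2b34 start, in a peak (chr5:86906894-86907091) of fold enrichment 5.06, where the median of all 5179 Cdx2 peaks was 5.57. No ATAC peak overlapped it in DKO, and in Wt the overlapping ATAC peaks had fold enrichments of 8.02 and 9.12. Ugt2b34 RNA was at a log2 fold change of -0.20 and was not called in the authors' deposited table.

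The other 4 members had their Cdx2 peaks upstream of the start. Ugt1a1 had a pair of peaks with summits 3.35 and 4.89 kb upstream (fold enrichment 5.59 and 5.35), and no ATAC peak overlapped either in any library. The Gsta1 peak lay 5.99 kb upstream (fold enrichment 4.87), again with no overlapping ATAC peak in any library. The Gstm5 peak, at 8.13 kb and a fold enrichment of 9.97, overlapped an ATAC peak in Wt replicate 1 alone (3.47). The Hsd17b11 peak, at 9.67 kb and 4.95, overlapped 1 ATAC peak, in Wt replicate 2 (5.21). At Hsd3b3 the nearest Cdx2 peak lay 19.1 kb upstream with a fold enrichment of 3.97, and no ATAC peak overlapped it. Sult1a1 had 5 Cdx2 peaks between 11.2 and 42.1 kb downstream of its start, with fold enrichments from 4.63 to 6.71, and another 77.9 kb upstream at 7.55. None of these overlapped an ATAC peak.

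**Figure D5:**
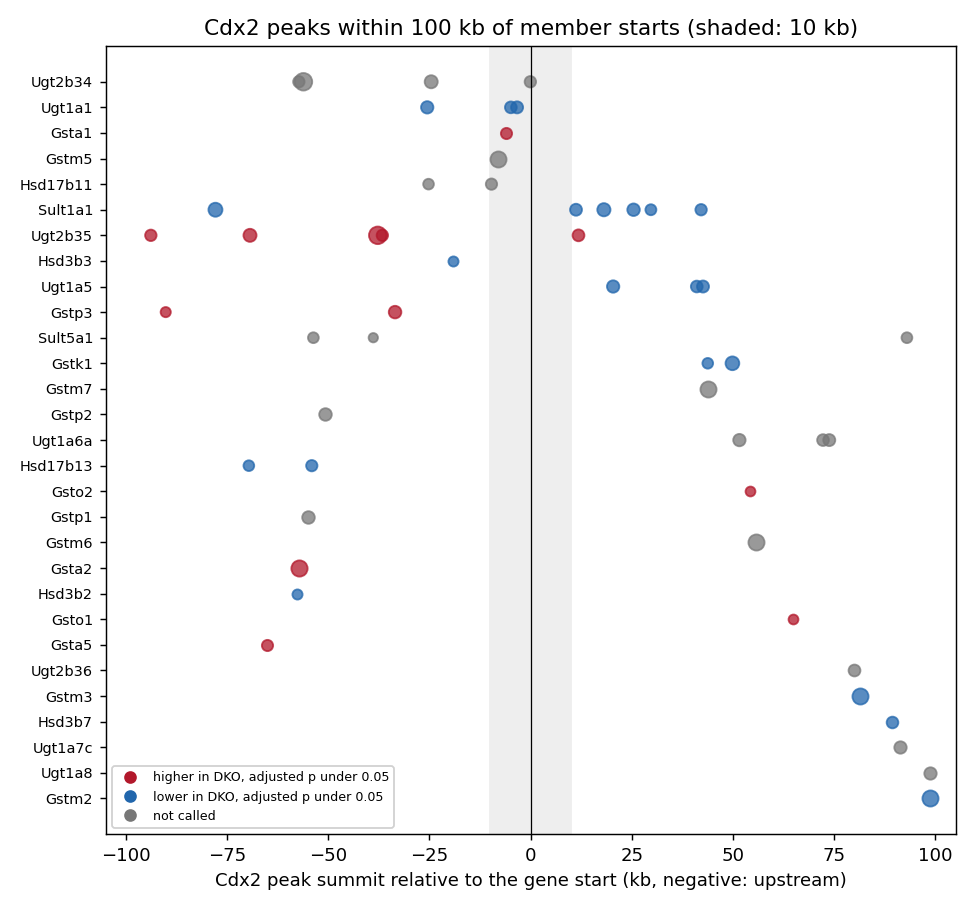
Position of Cdx2 peak summits within 100 kb of the start of 29 members, in kb, negative upstream; point area follows the fold enrichment and colour the RNA call. Only Ugt2b34, Ugt1a1, Gsta1, Gstm5 and Hsd17b11 have a summit in the shaded 10 kb, and 1 peak can appear beside several neighbouring genes.

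The 5 promoters below come from RefSeq (GRCm38.p6), each from 250 bases before to 50 bases after the start, 5′ to 3′ on the gene's strand. Ugt2b34 is shown since its Cdx2 summit falls inside the window, and its capitals mark the summit with 10 bases on each side. Gsta3, Gstm5, Gstm7 and Hsd17b13 are shown as the 4 members with a promoter ATAC peak in both Wt libraries and neither DKO library whose window holds TGACNNNGC, the core letters of the antioxidant response element, and their capitals mark that match; Gstm7 has another start whose window does not hold it.
Ugt2b34 promoter, chr5:86906888-86907187, minus strand: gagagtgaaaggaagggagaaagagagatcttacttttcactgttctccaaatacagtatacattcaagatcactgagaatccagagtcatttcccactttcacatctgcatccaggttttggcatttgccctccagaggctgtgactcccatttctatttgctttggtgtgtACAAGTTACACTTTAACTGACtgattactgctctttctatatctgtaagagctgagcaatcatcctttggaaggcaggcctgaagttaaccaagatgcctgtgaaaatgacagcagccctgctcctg
Gsta3 promoter, chr1:21240335-21240634, plus strand: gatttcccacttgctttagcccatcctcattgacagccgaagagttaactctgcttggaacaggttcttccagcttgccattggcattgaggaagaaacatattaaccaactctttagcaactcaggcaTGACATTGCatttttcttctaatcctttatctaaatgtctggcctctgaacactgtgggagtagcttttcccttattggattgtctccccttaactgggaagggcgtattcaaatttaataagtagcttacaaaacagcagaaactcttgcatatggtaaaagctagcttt
Gstm5 promoter, chr3:107895604-107895903, plus strand: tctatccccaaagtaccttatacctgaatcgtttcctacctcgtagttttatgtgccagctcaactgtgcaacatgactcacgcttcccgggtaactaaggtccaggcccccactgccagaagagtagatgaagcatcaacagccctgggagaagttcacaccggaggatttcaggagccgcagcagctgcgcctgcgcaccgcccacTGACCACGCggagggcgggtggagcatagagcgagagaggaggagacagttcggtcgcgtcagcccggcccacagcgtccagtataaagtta
Gstm7 promoter, chr3:107931565-107931864, minus strand: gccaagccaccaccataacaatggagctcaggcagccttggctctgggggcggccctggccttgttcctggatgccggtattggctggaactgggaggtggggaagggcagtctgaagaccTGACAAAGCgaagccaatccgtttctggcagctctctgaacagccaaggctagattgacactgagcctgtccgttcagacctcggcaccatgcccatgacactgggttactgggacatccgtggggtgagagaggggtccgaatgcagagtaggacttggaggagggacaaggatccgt
Hsd17b13 promoter, chr5:103977339-103977638, minus strand: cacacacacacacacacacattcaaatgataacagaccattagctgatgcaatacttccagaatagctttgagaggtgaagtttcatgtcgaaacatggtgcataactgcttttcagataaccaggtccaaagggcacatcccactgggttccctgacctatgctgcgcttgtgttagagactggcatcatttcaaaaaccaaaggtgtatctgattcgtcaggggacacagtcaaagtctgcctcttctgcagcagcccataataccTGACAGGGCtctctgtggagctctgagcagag

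The match begins 121 bases before the start in Gsta3, 42 bases before it in Gstm5, 129 bases before it in Gstm7 and 18 bases after it in Hsd17b13. Searched on both strands, TGACNNNGC was found in 7 of 61 member promoters (11.5%) and in 12.4% of all 32851 promoters in the table. TTTATNG, letters of the Cdx type searched on both strands, was found in 3 member promoters (4.92%), those of Gsta2, Gsta5 and Gstm6, and in 10.9% of all promoters. It was not found in the Ugt2b34 window, which says only that these letters are not there. No member promoter held both motifs. TGACNNNGC can contain an AP-1 site when its free letters read TCA.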

How the data were processed

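RNA-seq, ATAC-seq and Cdx2 ChIP-seq libraries were grouped by their titles. Tools listed in the submitters' processing notes are Salmon 1.3.0, DESeq2, fastp, MACS2, Bowtie2 and BWA, with GRCm38 and mm10 as builds and no role given for any. The deposited gene table gives, per the file headers, a mean normalized count (a signal scaled between libraries by the authors), a log2 fold change and SE of DKO over Wt, and p-values with adjusted p. These were used as the authors' values. For members with a large SE, such as Gsta2, Ugt1a6b and Ugt1a5, p does not follow from the log2 fold change and SE. The mismatch is not limited to these. For Gstm1, Gstt3 and Gsta1, with smaller SEs, the listed p is also smaller than the ratio of log2 fold change to SE would give. Whether fold changes were pulled toward 0 apart from the test is not stated in the headers. All folds and the 2-fold minimum rest on the values as given. Estimated counts and TPM per Ensembl transcript were deposited for each library, per the file headers. Counts served for library totals, and TPM was checked for its sum and not used further, since nothing used here pairs transcripts with genes and the planned edgeR fit on gene sums was not run. Peak lists, called per library by their peak names, give the authors' fold enrichment ratio, -log10 p, -log10 q and score per peak, per the file format.

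Members and lists were chosen with earlier results of these data known. Genes were placed by symbol, else by NCBI gene ID, on RefSeq starts of GRCm38.p6 (mm10 is this assembly), which covered 12118 genes (69.2%). A peak counted when it overlapped a window by at least 1 bp. P-values were readjusted by the Benjamini-Hochberg method after filters on the mean. Work was done in Python 3.11.15 with numpy 2.4.6 and pandas 2.3.3, and the overlap and adjustment steps were tested on simulated data. Genes were named by a rule within each family: called members past 50 normalized counts on average with the largest changes, the 3 highest means, members near Cdx2 peaks and members with a promoter ATAC change. The other members were added so that each is accounted for. Of the pathway lists, up to 3 called genes with the largest change were named by rule. Gsr, Gss, G6pdx, Bpnt1, Gclm, Slc26a2, Ugdh, Ggt1, Mgst2, Mgst3, Nfe2l2, Nr1i2, Nr3c1 and Nr3c2 were named after their values were seen.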

Additional observations from a re-analysis of the deposited data

How the results depend on the processing

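Calls among the members, 16 higher and 17 lower at first, changed with the filters tried, most with the 2-fold minimum. With p readjusted over genes of a mean of at least 50 normalized counts, 14 members were higher and 15 lower, and at a mean of at least 10 they were 16 and 18. The added call was Ugt1a8 (adjusted p = 0.0469). An adjusted p under 0.01 left 12 higher and 15 lower, a 2-fold minimum 11 and 13, and leaving out the Ugt1a genes 15 and 15. With the 2-fold minimum, 11.0% of all genes were higher and 13.2% lower. Shares of all genes were not taken under the other filters, so members are not set against all genes there.

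The count of members with a promoter ATAC peak in both Wt and neither DKO library was 18 to 20 over windows of 300 bases and 5 kb, a -log10 q of at least 5 and at least 50% of the peak in the window, while 29.3% (5 kb) to 52.8% (-log10 q of at least 5) of all genes placed had the pattern. Leaving out 1 ATAC library at a time gave 21 to 25, while the share of all genes with that pattern ran from 33.7% to 52.3%, the highest without DKO replicate 2. The opposite pattern held 1 member, Ugt1a5, with a window of 5 kb, and 0 under all other settings tried. Members with a Cdx2 peak numbered 1 within 2 kb, 13 within 50 kb and 29 within 100 kb, where 4.66%, 30.8% and 46.8% of all genes placed had one, so that count depends on the distance allowed. With stronger Cdx2 peaks (-log10 q of at least 5) the 5 members held, against 7.25% of all genes placed.

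No paired analysis was possible because the authors' gene table carries no values per library and the peak counts come from no test. For the same reason DESeq2 and edgeR on gene sums, no filter in those fits and left-out RNA libraries were not run. With 2 libraries per group, and with means under 50 normalized counts for 10 members, SEs reached 3.07 on the log2 scale.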

Other observations

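Genes beside the member clusters were counted to see what else lies there. Within 100 kb of the chromosome 9 Gsta cluster, the authors' deposited table had 2 of 6 other protein-coding genes higher in DKO and 0 lower, beside 4 of 4 members higher. Neighbours were set apart from members by symbol alone, so a transferase copy under another name would be counted among them. One of the 6, Gm3776, was not checked for this, so the 6 may not all be unrelated to the cluster. Around the Gstt cluster 0 of 7 neighbours were higher and 4 lower, and around the Gstp cluster 0 of 13 were higher and 4 lower, by the authors' deposited table, while those clusters held 2 and 1 higher members and no lower one. The Gstm cluster had 2 of 4 neighbours higher and 0 lower, against 1 member higher and 3 lower, by the authors' deposited table. Over all protein-coding genes 21.1% were higher and 19.9% lower, and no test was run on these small counts.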
